A study of Mus musculus with 32 samples.

Results

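The clustered protocadherins are cell-surface adhesion proteins of the cadherin superfamily, encoded side by side in an alpha, a beta and a gamma cluster. They were taken from the deposited expression table by their symbols (Pcdha, Pcdhac, Pcdhb, Pcdhga, Pcdhgb or Pcdhgc followed by a number). This gave 58 genes of the 24940 in the table, namely 14 alpha, 22 beta and 22 gamma genes. All lie on the plus strand of chromosome 18 of mouse build mm10, at chr18:36930285-37841872. The alpha cluster occupies chr18:36930285-37187660, the beta cluster chr18:37264998-37521419 and the gamma cluster chr18:37661945-37841872.

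In neurons each clustered protocadherin gene is switched on from its own promoter, and single neurons use different sets of them, which gives their surfaces an identity used in self-recognition of dendrites and axons. An alpha or gamma transcript joins 1 variable exon, chosen by the promoter, to constant exons shared by the whole cluster, whereas each beta gene is a single exon with no shared part. CTCF, a zinc finger protein that with cohesin anchors chromatin loops, binds a conserved element in most of these promoters and binds their distant enhancers. The promoters of Pcdhac2, Pcdhgc4 and Pcdhgc5, which belong to the C-type genes at the end of a cluster, are known to lack that element.

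The samples were mouse embryonic stem (ES) cells of strain 129. In the d8 lines, called Del8 in the binding experiment, the expressed protein was GFP-CTCF-Del8, a GFP-tagged CTCF without zinc finger 8. In the GC lines it was GFP-CTCF with all its zinc fingers. Cells of both genotypes thus carried a GFP-tagged CTCF, and untagged wild-type cells were not in the RNA-seq set. RNA-seq covered 3 d8 lines with 8 libraries (3 of line 1, 3 of line 2, 2 of line 3) and 2 GC lines with 3 libraries each. CTCF binding was available as 1 peak list for Del8 and 1 for GC. No treatment or time course is labelled.

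The 14 RNA-seq libraries held 14.3 to 16.7 M reads, read back from the steps of the deposited RPKM values (reads divided by exon length and by library size). ES cell markers such as Pou5f1 and Sox2 summed to 1771 to 2172 RPKM in d8 libraries and 1612 to 2126 RPKM in GC libraries over 10 genes. The summed level of 13 fibroblast or feeder cell markers was 23.2 to 45.4 RPKM in d8 libraries and 63.6 to 210.2 RPKM in GC libraries, with no overlap, and 1 of the 13 stayed under 0.1 RPKM in every library. Library GC1B was the highest at 210.2 RPKM and library d8-1A the lowest at 23.2 RPKM. Acta2 alone made up 165.4 RPKM of the GC1B sum. Col1a1 was higher in GC2C, at 28.0 RPKM, than in GC1B, at 12.3 RPKM, so the top library depends on the marker. Of the 9 fibroblast markers tested, 5 fell in d8, led by Col1a1 (log2 fold change -2.61), Acta2 (-1.76) and Col1a2 (-1.69), all by limma with an adjusted p under the threshold of 0.05. Thy1 (0.45) and Twist1 (0.04) were higher in d8 and not called. Over all genes tested 8.76% were called in either direction. The part of feeder or differentiated cells in the protocadherin differences was not tested. In such bulk RNA, fewer cells using a gene and less RNA per cell cannot be told apart. Ctcf itself averaged 28.5, 33.0 and 34.5 RPKM in d8 lines 1, 2 and 3, against 5.93 RPKM in GC line 1 and 28.1 RPKM in GC line 2 (difference of 1.21 ± 0.53 SE on the log2 scale, adjusted p = 0.19 from limma).

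The 3 clusters stood at very different levels in these cells. The RPKM of the gamma rows ranged from 6.56 to 8.60 in the d8 mean and from 8.65 to 12.05 in the GC mean. Alpha rows ranged from 0.077 to 0.102 RPKM in the d8 mean and from 0.160 to 0.204 RPKM in the GC mean. Beta rows lay between 0 and 0.0397 RPKM in the d8 mean and between 0 and 0.0907 RPKM in the GC mean. All 22 gamma rows reached a mean of 1 RPKM in a genotype, the minimum for testing, and the 36 alpha and beta rows did not. Summed over the cluster, gamma RPKM was 121, 165 and 187 in d8 lines 1, 2 and 3, against 260 and 159 in GC lines 1 and 2. The genotype means were 158 ± 33.9 in d8 (SD, n = 3 lines) and 209 ± 72.0 in GC (SD, n = 2 lines), so they lay closer than the lines within GC. These sums count the constant exons once for each of the 22 rows.

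The gamma rows were nearly the same number repeated. In library d8-1A the row with the fewest reads held 347, and in the other d8 libraries it held 313, 462, 554, 532, 519, 649 and 597. In the GC libraries it held 791, 912, 739, 621, 445 and 495. These are reads that every gamma row contains, as reads in the constant exons do. Between 17 and 21 of the 22 rows in d8 libraries, and between 10 and 19 in GC libraries, lay within 10 reads of that lowest row. The table also lists Gm37013, Gm38666 and Gm38667, alpha-to-gamma fusion transcripts, and their counts lay from 3 reads below to 4 reads above the lowest gamma row. A deposited gamma RPKM is thus mostly a measure of the constant exons. The reads of a member above the lowest row of its library are the ones that can be placed in its own variable exon, and they are a lower bound where the lowest row had such reads too. They are given as reads or as RPM (reads per M reads of the library) and not per length, since the table gives exon lengths of 4474 to 5073 bases for whole gamma transcripts only.

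On the deposited values none of the 22 gamma genes passed the test between d8 and GC. All 22 log2 fold changes were negative, from -0.42 to -0.32 with a median of -0.34, against a median of -0.02 over all genes tested, and the limma adjusted p-values ran from 0.35 to 0.42. None had an unadjusted p under 0.05. Of 12468 genes tested, 8.76% were called in either direction. Leaving out GC line 1 brought the gamma median to -0.015, and leaving out GC line 2 brought it to -0.66. As the rows share their reads, their common sign is close to that of a single measurement.

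The lines of 1 genotype differed from each other at the shared gamma reads. The lowest gamma row stood at 50.2, 59.8 and 50.2 RPM in GC line 1, against 38.7, 29.2 and 29.7 in GC line 2. All 22 gamma rows were called higher in GC line 1, by 0.61 to 0.71 on the log2 scale (limma over 14 libraries, adjusted p = 0.0083 to 0.011). Of all genes tested, 3.37% were called higher in GC line 1. Without library GC2B the number fell to 17. Among d8 lines no member was called. The gamma median was -0.40 for d8 line 1 minus d8 line 2, where 3.14% of all genes were called. It was -0.55 for d8 line 1 minus d8 line 3, with 1.14% of genes called, and -0.16 for d8 line 2 minus d8 line 3, with 0.112% called and 0 members at an unadjusted p under 0.05. In both contrasts of d8 line 1 all 22 had an unadjusted p under 0.05, and all 22 were called lower in d8 line 1 once library d8-1C was left out. Without GC1C or GC2A Pcdhgc3 alone was called in both, and without GC1B in the contrast with d8 line 3. The share of all genes at such an unadjusted p was not counted. The shares called with a library left out are not given here, so these counts have no background beside them. As the 22 rows share their reads, they count as close to 1 measurement. GC line 1 was also the line with the lowest Ctcf level, 2.06 lower than GC line 2 on the log2 scale (adjusted p = 1.4e-06), and its part in the gamma difference was not tested.

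Of the gamma reads that could be placed in a variable exon, the largest share belonged to Pcdhgc3, a C-type gene. Pcdhgc3 had 48, 51, 84, 136, 133, 135, 160 and 163 reads above the lowest row in the d8 libraries. In the GC libraries it had 328, 328, 155, 173, 109 and 161. The libraries overlapped between genotypes, with GC1A and GC1B highest at 328 reads and GC2B, at 109, below every library of d8 lines 2 and 3. Pcdhgc3 took 62.3% of the reads above the lowest row in d8 and 52.9% in GC. By line its share was 56.0%, 63.3% and 65.1% in d8 lines 1, 2 and 3, against 55.9% in GC line 1 and 48.1% in GC line 2. Its rate was 7.58 ± 3.09 RPM in d8 (SD, n = 3 lines) and 13.5 ± 6.01 in GC (SD, n = 2 lines). Its deposited level differed between d8 and GC by -0.42 ± 0.26 (SE) on the log2 scale, at an adjusted p of 0.35 from limma. The other C-type gamma genes were low, with Pcdhgc5 at 1.08 RPM in d8 and 1.09 in GC, and Pcdhgc4 at 2 to 7 reads in d8 libraries and 0 to 13 reads in GC libraries.

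**Figure D1:**
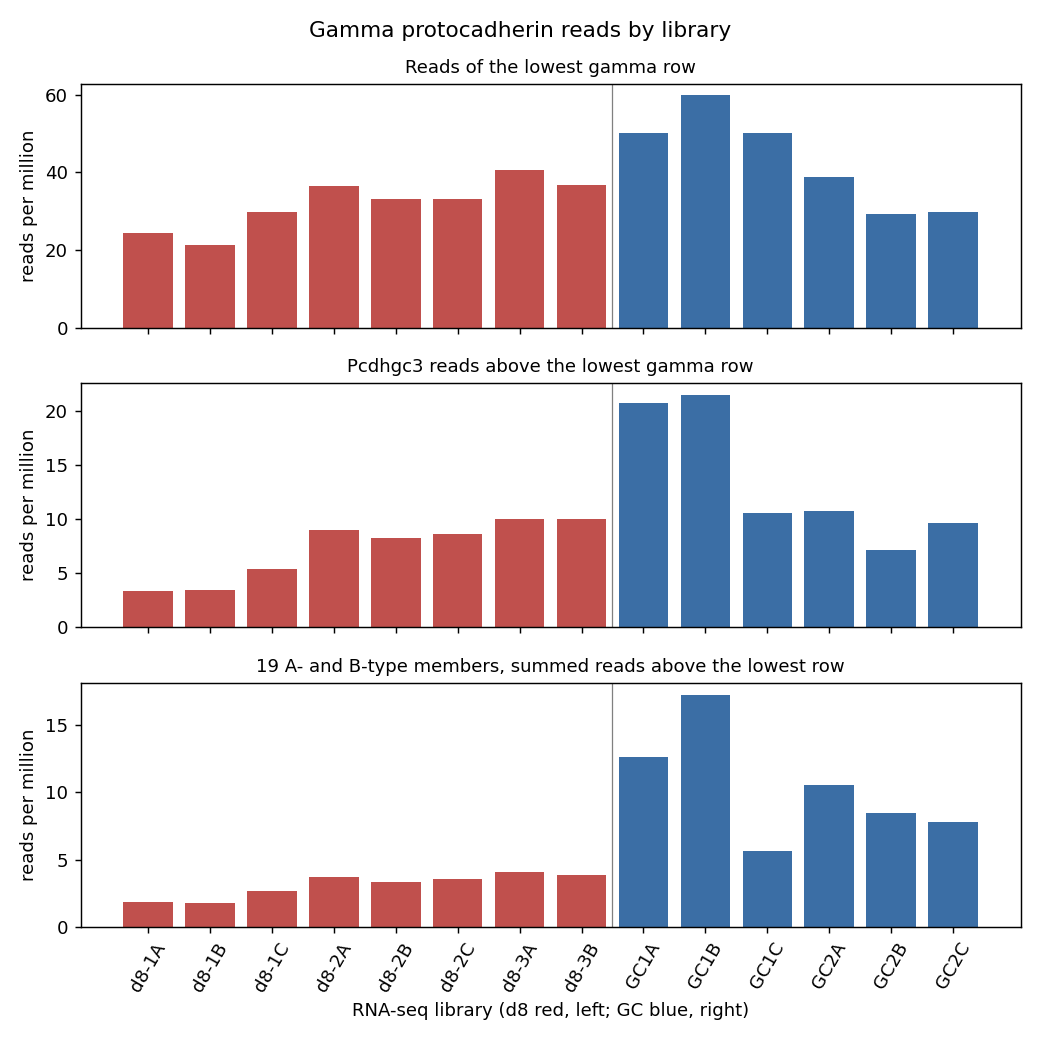
RPM by RNA-seq library, d8 left in red and GC right in blue, for the lowest gamma row (top), Pcdhgc3 above that row (middle) and the 19 A- and B-type gamma members summed above that row (bottom). The first 2 overlap between genotypes, and in the bottom panel the highest d8 library stands at 4.07 and the lowest GC library at 5.64 RPM.

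The A- and B-type gamma genes, whose promoters lie upstream of the C-type genes, were read less in every d8 library than in every GC library. Their 19 members together had 26, 26, 42, 56, 54, 56, 65 and 63 reads above the lowest row in the d8 libraries, and 199, 263, 83, 169, 129 and 130 in the GC libraries. The same held for RPM. The rate was 2.11, 3.54 and 3.97 RPM in d8 lines 1, 2 and 3, against 11.9 and 8.92 in GC lines 1 and 2. That is 3.21 ± 0.97 in d8 (SD, n = 3 lines) and 10.4 ± 2.12 in GC (SD, n = 2 lines). The pooled rate in d8 was 0.302 of that in GC, and with any 1 line left out it was 0.263 to 0.358. Without library GC1B, the highest in the fibroblast marker sum though not in every marker, it was 0.346. The fibroblast marker sums separated the same libraries, and their part in this difference was not tested. Among all genes with a read, 20.1% had every d8 line below both GC lines in RPKM. The share of genes with every d8 library below every GC library was not counted, here or for the sums and genes below.

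A-type members summed to 1.97 ± 0.57 RPM in d8 (SD, n = 3 lines) and 6.56 ± 0.13 in GC (SD, n = 2 lines). B-type members summed to 1.24 ± 0.45 in d8 and 3.86 ± 2.25 in GC over the same lines. The A-type libraries did not overlap between genotypes (0.82 to 2.82 in d8, 3.53 to 9.19 in GC), and neither did the B-type libraries (0.42 to 1.66 in d8, 1.84 to 8.07 in GC). The B-type sum of GC line 1 was 5.45 RPM and that of GC line 2 was 2.27.

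Single A- and B-type genes showed the difference on few reads. Pcdhgb4 had 3 reads above the lowest row over 8 d8 libraries, at 1 read in d8-1A and 2 reads in d8-3B. In the GC libraries it had 15, 34, 7, 5, 2 and 8 reads. Pcdhga10 had 0 to 2 reads in each d8 library, and 13, 29, 1, 7, 5 and 10 in the GC libraries. Pcdhga11 had 4, 3, 8, 9, 9, 10, 16 and 17 reads in the d8 libraries, and 38, 47, 24, 45, 16 and 28 in the GC libraries. Pcdhgb5 had 0 or 1 read in each d8 library and 2 to 11 in each GC library, with no overlap.

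Not all of them differed by as much. Pcdhga12, the last A-type gene, had 86 reads above the lowest row in d8 and 88 in GC, or 0.695 RPM in d8 and 0.939 RPM in GC. Pcdhgb8 had 0.428 RPM in d8 and 0.502 in GC. Pcdhgb7, the gamma gene of second highest deposited RPKM, had 0.638 in d8 and 1.17 in GC, and its d8 lines (0.336, 0.788 and 0.838) lay on both sides of GC line 2 at 0.521. The lowest row was most often that of Pcdhga6, which had 0 reads above it in d8 and 1 in GC.

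Over the gamma cluster the rate above the lowest row was lower in d8 for 22 of 22 members. Among them Pcdhgc5 (1.083 RPM in d8, 1.089 in GC) and Pcdhga6 (0 reads in d8, 1 in GC) were nearly level. On the deposited values 54.1% of all genes tested had a negative log2 fold change. With the shared reads taken off, every d8 line lay below both GC lines for 12 of the 22 gamma members, and for none did the d8 lines lie above. On the deposited RPKM this held for 0 of the 22. Over all genes with a read, 20.1% had every d8 line below both GC lines in deposited RPKM. That share is set beside the 0 of 22 and is not like for like with the 12. A rerun of limma used RPKM rebuilt with the shared reads taken off, without the filter on low values. None of the 54 members with a read then passed between d8 and GC. An unadjusted p under 0.05 was reached by 11 of them, 9 gamma and 2 beta genes, all lower in d8. The share of all genes at such an unadjusted p was not counted, so this number has no background beside it. The lowest limma adjusted p-values were 0.074 for Pcdhga11 (log2 fold change -0.34 ± 0.07 SE), 0.078 for Pcdhga10 (-0.18 ± 0.04 SE) and 0.084 for Pcdhga5 (-0.08 ± 0.02 SE). In that fit 1.39% of 20791 genes were called. On the log2(RPKM + 1) scale used, changes of genes this low are understated.

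The GC lines also differed from each other in variable exons. Between GC line 1 and GC line 2, rebuilt values of 4 members were called, where 3.29% of all genes were. Pcdhgb7 (log2 difference 0.33, limma adjusted p = 0.046) and Pcdhgb5 (0.12, adjusted p = 0.035) were higher in GC line 1. Pcdhga1 (-0.25, adjusted p = 0.021) and Pcdhga2 (-0.20, adjusted p = 0.028) were lower in it. Pcdhga1 had 3, 1 and 3 reads above the lowest row in the libraries of GC line 1, against 17, 22 and 10 in those of GC line 2. Pcdhga2 had 3, 1 and 0 reads in GC line 1, against 18, 13 and 6 in GC line 2. These first 2 genes of the gamma cluster thus ran against the shared reads, which were higher in GC line 1. In the d8 lines Pcdhga1 had 0 to 6 reads and Pcdhga2 0 to 2 reads per library. Pcdhgc3 was 0.65 higher in GC line 1 on these values and was not called (adjusted p = 0.099).

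**Figure D2:**
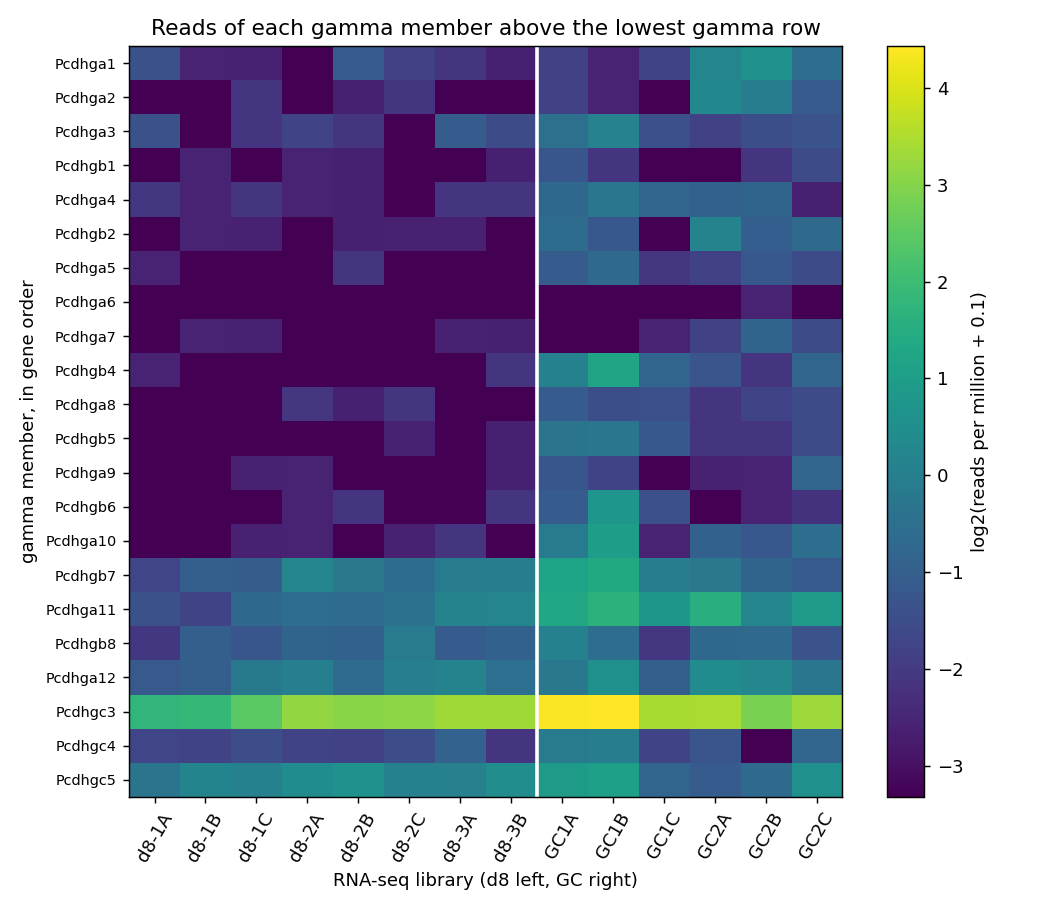
Reads of each of the 22 gamma members above the lowest gamma row, as log2(RPM + 0.1), with d8 libraries left and GC libraries right of the white line. Pcdhgc3 is highest in every library, the block from Pcdhga1 to Pcdhga10 is near 0 in d8, and Pcdhga1 and Pcdhga2 are higher in the libraries of GC line 2 than in those of GC line 1.

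The alpha cluster was read at a low level. Its lowest row held 3, 13, 4, 5, 2, 8, 9 and 6 reads in the d8 libraries, and 12, 19, 8, 21, 11 and 8 in the GC libraries. The libraries overlapped, with d8-1B, d8-2C and d8-3A inside the range of GC. In RPM the pooled d8 rate was 0.479 of that in GC, and it was 0.449 to 0.540 with any 1 line left out. Summed alpha RPKM was 1.23, 0.889 and 1.29 in d8 lines 1, 2 and 3, against 2.40 and 2.36 in GC lines 1 and 2. The genotype means were 1.14 ± 0.215 in d8 (SD, n = 3 lines) and 2.38 ± 0.0297 in GC (SD, n = 2 lines). All 14 alpha rows had every d8 line below both GC lines, set against 20.1% of all genes, but they share their constant exons and count as close to 1 measurement. Without the filter on low values no alpha row was called by limma, with 14 of 14 at an unadjusted p under 0.05 and a lowest adjusted p of 0.074. The share of all genes at that unadjusted p was not counted.

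Few alpha reads could be placed in a variable exon. Between 10 and 14 of the 14 rows in d8 libraries, and between 7 and 10 in GC libraries, stood exactly at the lowest row. Pcdhac2, a C-type gene with the highest alpha RPKM, had 17 reads above the lowest row in d8 and 24 in GC, which was 65.4% of such alpha reads in d8 and 34.3% in GC. Pcdha10 had 0 in d8 and 9 in GC. Pcdha5 had 2 in d8 and 7 in GC, and Pcdha3 had 2 in d8 and 5 in GC. Pcdhac1, the other C-type alpha gene, was itself at the lowest row in all 14 libraries.

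Beta reads are not shared between rows, apart from reads that near-identical beta genes could exchange. The 22 beta genes together had 0, 5, 7, 1, 4, 5, 5 and 12 reads in the d8 libraries, and 14, 33, 13, 21, 15 and 22 in the GC libraries. Every d8 library was below every GC library. This was 39 reads among 123.7 M in d8 and 118 among 93.7 M in GC, or 0.315 RPM in d8 and 1.26 RPM in GC. The d8 rate was 0.250 of the GC rate, between 0.191 and 0.30 with any 1 line left out, and 0.291 without library GC1B. The fibroblast marker sums separated the same libraries here too, and their part was not tested. As for the gamma sums, the share of all genes separated by library was not counted.

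Of the 22 beta genes, 3 had no read in any library (Pcdhb5, Pcdhb9 and Pcdhb10), which at a limit of 3 reads over a group allows up to 0.0242 RPM in d8. In d8 11 genes had a read and in GC 18, with 10 in both. Only Pcdhb13, with 1 read in d8 and 0 in GC, was seen in d8 alone. Every d8 line lay below both GC lines for 8 of the 19 with a read, against 20.1% of all genes. Pcdhb2 had 0 reads in all 8 d8 libraries and 1, 3, 2, 4, 3 and 3 reads in the GC libraries, which is at least 7.05-fold lower in d8 against 3 reads over the group. It was not called (log2 difference -0.09 without the filter, limma adjusted p = 0.088). Pcdhb22, the highest beta gene by RPKM, had 0 to 6 reads in d8 libraries and 2 to 9 in GC libraries. Pcdhb17 had 0 to 2 reads in d8 libraries and 0 to 10 in GC libraries. Pcdhb3 had 1 read in d8 and 12 in GC, and Pcdhb1 had 4 in d8 and 6 in GC.

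**Figure D3:**
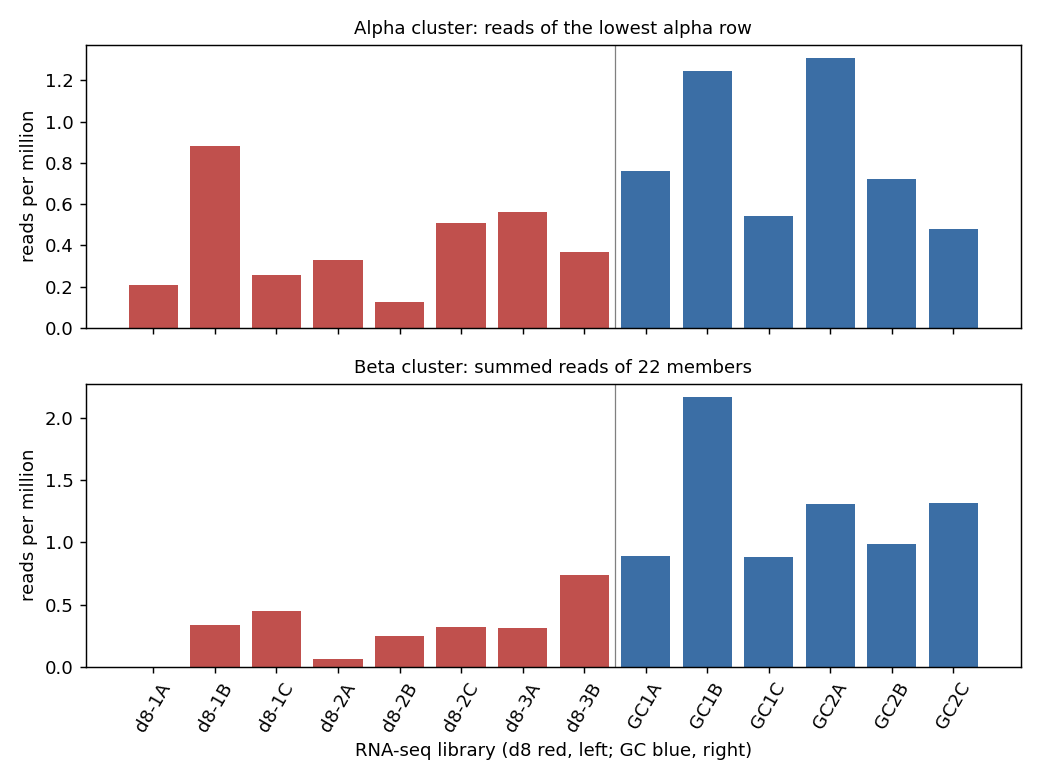
RPM of the lowest alpha row (top) and of the 22 beta genes summed (bottom) by RNA-seq library, d8 left in red and GC right in blue. The alpha libraries overlap, with d8-1B, d8-2C and d8-3A inside the range of GC, and the beta libraries do not.

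CTCF peaks were examined at the start of each member, within 1000 bp. The Del8 list held 15546 peaks called from 5.59 M tags and the GC list 26729 peaks from 8.09 M tags, so a weak site could be missed more readily in Del8. Each list is 1 library, and no test between them was possible. A Del8 peak lay at 19 of the 58 starts and a GC peak at 43 of the 58. Over all 24747 gene starts of the table, 6.96% had a Del8 peak and 9.98% a GC peak. Both lists had a peak at 17 member starts, or 39.5% of the 43 starts with a GC peak, against 57.7% over all starts with a GC peak.

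The clusters differed in how many of these peaks were also in the Del8 list. In the alpha cluster 7 of 14 starts had a Del8 peak and 9 of 14 a GC peak. In the beta cluster 9 of 22 had a Del8 peak and 17 of 22 a GC peak. In the gamma cluster 3 of 22 had a Del8 peak and 17 of 22 a GC peak. With the GC list shortened to its first 15546 peaks, the length of the Del8 list, the alpha counts were 7 in Del8 and 5 in GC, the beta counts 9 in Del8 and 8 in GC, and the gamma counts 3 in Del8 and 15 in GC. The lower Del8 count thus held for gamma starts and turned round for alpha and beta starts. Counted as peaks over the whole lists, 8 of the 12 GC peaks at alpha starts were overlapped in Del8 by at least 1 bp (66.7%, exact binomial 95% interval 34.9 to 90.1%). At beta starts it was 7 of 17 (41.2%, 18.4 to 67.1%), and at gamma starts 3 of 17 (17.6%, 3.8 to 43.4%). Of all GC peaks 42.0% were overlapped, of those on chromosome 18 41.6%, and of those within 1000 bp of any gene start 55.8%. The gamma interval ends below the share of peaks at all gene starts and contains that of all GC peaks. These intervals cover counting error only.

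The place of a peak in its list, taken as a guide to its strength because every score is 1, ran the other way. GC peaks at gamma starts had a median list position of 4696 of 26729, against 13201 for alpha and 15719 for beta starts. Over all peaks the share overlapped in Del8 was 75.8% in the first 20% of the GC list, 56.5% in the next 20%, then 39.4% and 25.0%, and 13.1% in the last 20%. Of the GC peaks at gamma starts, 9 lay in the first 20% of the list and 3 of them were overlapped (33.3%, exact interval 7.5 to 70.1%), which is below the 75.8% of that block, and the interval ends under it. None of the 4 in the next 20% and the 3 in the middle 20% was overlapped. In that middle block 4 of 6 peaks at alpha starts were overlapped, and 4 of 10 at beta starts. In the first 50% of the GC list the counts were 3 of 15 gamma peaks (20%), 4 of 6 beta peaks (66.7%) and 4 of 5 alpha peaks (80.0%).

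**Figure D4:**
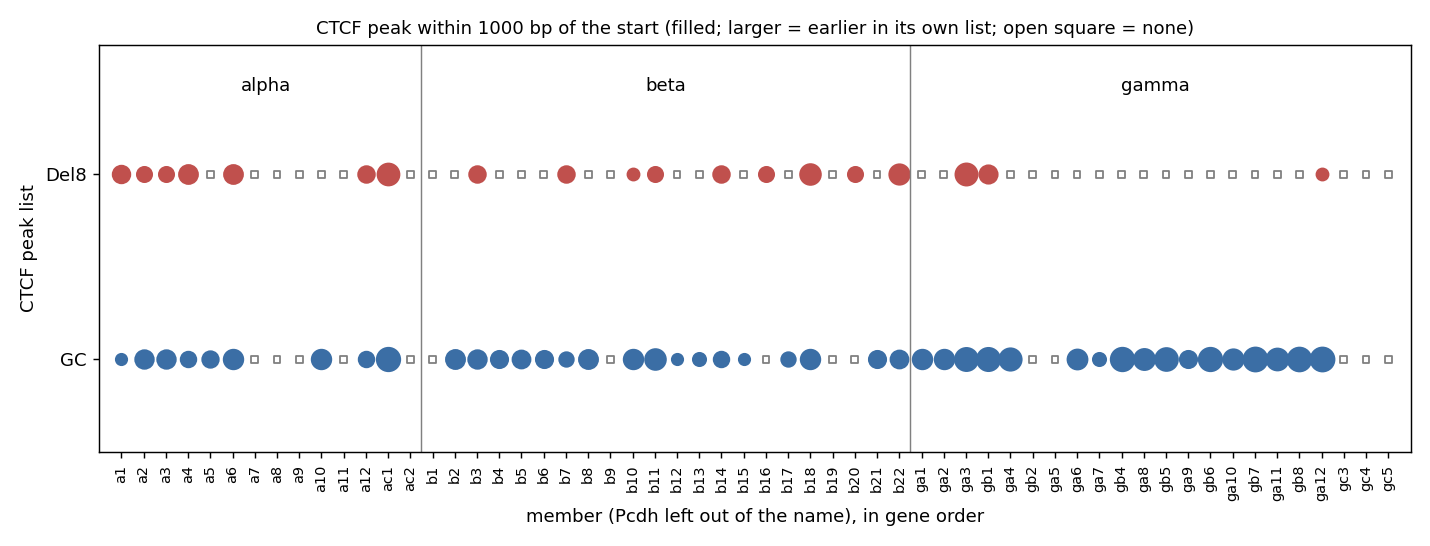
CTCF peaks within 1000 bp of the 58 starts in gene order, with the Del8 list above and the GC list below. Filled circles are peaks, larger when earlier in their own list, and open squares are starts with none. Del8 peaks are at 7 alpha, 9 beta and 3 gamma starts, and GC peaks at 9, 17 and 17.

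The 3 gamma starts with a peak in both lists were those of Pcdhga3, Pcdhgb1 and Pcdhga12. At Pcdhga3 the Del8 peak was at position 3057 of its list and the GC peak (chr18:37674164-37674396) at position 2781. At Pcdhgb1 the Del8 peak was at position 7959 and the GC peak (chr18:37680072-37680304) at position 2505. At Pcdhga12 the Del8 peak stood at position 14037 of 15546, near the end of the list, and the GC peak (chr18:37765787-37766019), with its centre 323 bp inside the gene, at position 610. Gamma starts with an earlier or similar GC peak and none in Del8 included Pcdhgb7 (chr18:37751430-37751662, position 549), Pcdhgb8 (chr18:37761536-37761768, position 983), Pcdhgb4 (chr18:37720234-37720466, position 1793) and Pcdhgb6 (chr18:37741900-37742132, position 2016). From Pcdhga4 to Pcdhgb8 no gamma start had a Del8 peak.

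In the alpha cluster, the starts of Pcdha1, Pcdha2, Pcdha3, Pcdha4, Pcdha6, Pcdha12 and Pcdhac1 had a peak in both lists, and those of Pcdha5 and Pcdha10 only in GC. The peak of Pcdhac1 was the earliest of the cluster, at position 3351 in Del8 and 2015 in GC. In the beta cluster the starts of Pcdhb3, Pcdhb7, Pcdhb10, Pcdhb11, Pcdhb14, Pcdhb18 and Pcdhb22 had both. Pcdhb16 and Pcdhb20 had a peak only in Del8, that is 2 of the 19 member starts with a Del8 peak, where 27.8% of all Del8 peaks had no GC peak over them. Neither list had a peak at 13 starts, among them those of Pcdhac2, Pcdhgc4 and Pcdhgc5, of Pcdhgc3, Pcdhgb2 and Pcdhga5, and of Pcdhb1, the first beta gene. Pcdhgc3, with the largest share of the variable-exon reads, thus had no peak within 1000 bp in either list, and its nearest GC peak centre was 2535 bp inside the gene.

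Away from the starts the clusters and the gaps between them held 12 GC peaks and no Del8 peak. The GC peaks fell into 1 inside the alpha cluster, 4 inside beta, 4 inside gamma and 3 between clusters. The pair between the alpha and beta clusters lay at chr18:37217273-37217505 and chr18:37218245-37218477, at list positions 17167 and 13202. Beyond the last gamma gene, within 100 kb, 4 of 6 GC peaks were overlapped in Del8. Over the region with 100 kb on each side it was 22 of 64, or 34.4% (exact interval 22.9 to 47.3%).

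**Figure D5:**
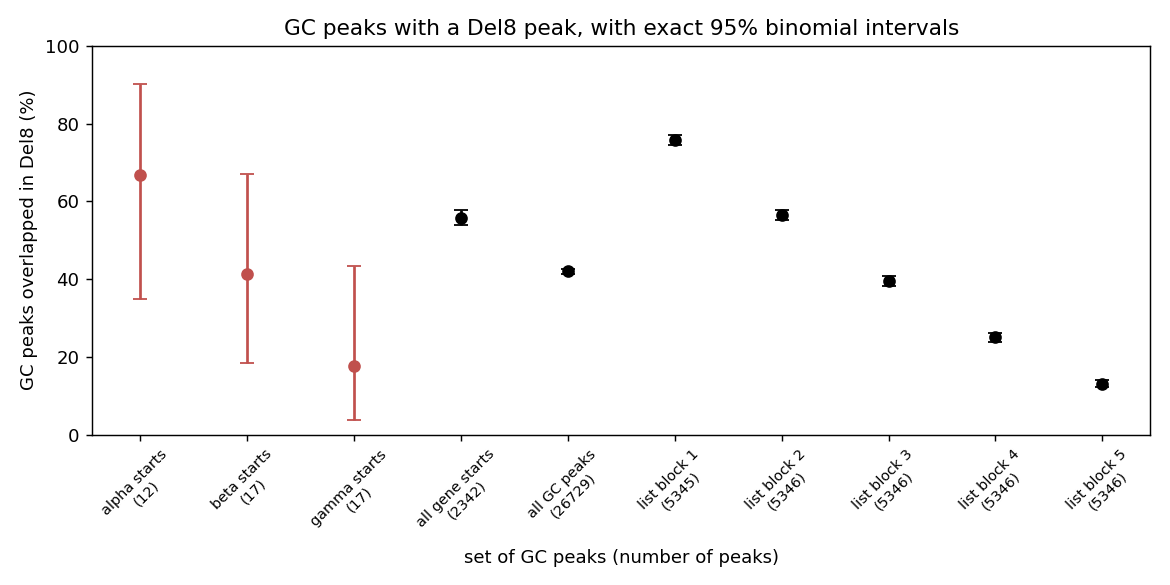
Share of GC peaks overlapped by a Del8 peak, in percent, with exact binomial 95% intervals, for peaks at alpha, beta and gamma starts (red) and for all gene starts, all GC peaks and each block of 20% of the GC list, first to last (black). Gamma starts stand at 17.6%, under the 55.8% of all gene starts and under the 75.8% of the first block, which holds 9 of the 17.

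The reads and the peaks can be set side by side for gamma and beta starts, as a description without a test. Alpha starts were left out. The 14 gamma genes with a peak in GC only had 2.17 RPM above the lowest row in d8 and 8.09 in GC, a ratio of 0.269. Within this class single genes ran up to a ratio of 0.854 for Pcdhgb8. The 3 with a peak in both lists had 0.897 in d8 and 1.52 in GC, a ratio of 0.592. Pcdhga12 alone held 86 of these 111 d8 reads at a ratio of 0.74, and Pcdhga3 stood at 0.388 and Pcdhgb1 at 0.233. The 5 with no peak in either list, Pcdhgc3 among them, had 8.74 in d8 and 15.7 in GC, a ratio of 0.556. Pcdhgc3 held 910 of these 1081 d8 reads. The A- and B-type genes without a peak, Pcdhgb2 and Pcdhga5, had 8 reads in d8 and 73 in GC, a ratio of 0.083, which is below that of the genes with a peak in GC only. The ratios thus did not order single gamma genes by their peaks. In the beta cluster the ratio was 0.165 for the 10 genes with a peak in GC only, from 10 reads in d8 and 46 in GC. It was 0.266 for the 7 with both peaks, from 19 reads in d8 and 54 in GC, and 0.568 for the 3 with none, from 6 reads in d8 and 8 in GC. Outside these classes were Pcdhb16 (3 reads in d8, 6 in GC) and Pcdhb20 (1 in d8, 4 in GC), with a peak only in Del8. Apart from Pcdhgc3 and Pcdhgc5 (134 reads in d8 and 102 in GC), gamma members without a peak had few reads above the lowest row. These were at most 29 in d8 (Pcdhgc4) and 45 in GC (Pcdhgb2).

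Genes that act with the clusters were described from lists. Of 11 genes for CTCF and cohesin, 1 rose in d8 and 0 fell, the cohesin subunit Stag2 (42.9 ± 3.19 RPKM in d8 and 31.1 ± 2.92 RPKM in GC, SD over 3 and 2 lines, log2 fold change 0.45, limma adjusted p = 0.040). Of 11 regulators of DNA methylation and silencing known to act on protocadherin promoters, 2 rose and 0 fell. They were the DNA methyltransferases Dnmt3a (49.3 RPKM in d8 and 30.5 in GC, log2 fold change 0.69, adjusted p = 0.018) and Dnmt3b (300.2 RPKM in d8 and 202.6 in GC, 0.61, adjusted p = 0.023). The list medians were 0.06 and 0.08 on the log2 scale, against -0.02 over all genes tested. Of all genes tested 8.76% were called in either direction, which on lists of 11 leaves little room to tell these counts from that share. Of 19 partners of protocadherins, such as the protease Adam10 and the actin regulator Nckap1, none was called, 12 were higher and 7 lower in d8, and the list median was 0.087. The partners of highest level were Brk1 at 62.1 RPKM in d8 and 66.4 in GC and Nckap1 at 37.0 RPKM in d8 and 44.7 in GC. An unadjusted limma p under 0.05 was reached by 6, of which Nckap1 (-0.26) and Adam10 (-0.34) were lower in d8 and Ptk2b (0.58), Ret (0.36), Marcks (0.27) and Ptk2 (0.22) higher. The share of all genes at such an unadjusted p was not counted, so this number is not a result about the partners.

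Of 12 protocadherins outside the clusters, 4 were tested and none was called by limma between d8 and GC, 3 of them at an unadjusted p under 0.05. The share of all genes at such an unadjusted p was not counted, here or for the neural markers below. Pcdh1 stood at 10.8 ± 2.34 RPKM in d8 and 7.81 ± 2.05 RPKM in GC (SD over 3 and 2 lines), and Pcdh18 at 1.01 in d8 and 2.00 in GC. Pcdh7 was 0.79 higher in GC line 1 than in GC line 2 on the log2 scale (limma adjusted p = 0.017). Of 21 genes that flank the clusters, 19 were tested, 2 rose and 1 fell, with a list median of -0.09. Over all genes tested 8.76% were called in either direction, the share to set beside this count and those below. Rell2 rose by 0.54 (adjusted p = 0.049) and Gnpda1, a glucosamine phosphate deaminase, by 0.52 (adjusted p = 0.030), and Dnd1, a germ cell RNA-binding protein, fell by 0.62 (adjusted p = 0.032). Of 10 ES cell markers, Tdgf1 rose by 0.47 and Nanog fell by 1.14. Of 11 neural markers 7 were tested and none was called, with 4 higher and 3 lower in d8 (6 of the 7 at an unadjusted limma p under 0.05). The 11 summed to 169 to 229 RPKM in d8 libraries and 168 to 206 RPKM in GC libraries. The authors' deposited table of changed genes compares a control with del8, and its 5 library columns match no sample used here by name. It lists 1280 genes, where the expression table holds 24940, and 0 of the 58 clustered protocadherins. On 58 genes this leaves little room to tell 0 from the share over all genes.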

How the data were processed

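Per the labels' protocols, Trizol RNA went into a stranded mRNA kit and was sequenced from 1 end over 50 bp. RPKM values were deposited, counted with HOMER over exons of 1 transcript per gene on build mm10, per the file headers. No strand setting is named there, so antisense reads cannot be told apart, and how reads matching several genes were assigned is not given in the sources used here. Low RPKM values are whole multiples of 1 read, and 100.0% of those checked came out whole within 0.1 read. Reads per gene and depths were rebuilt from them and are estimates. No count test was run on these rebuilt reads, as the value of a step depends on each gene's length. The deposited peak lists give a score per peak that is always 1, and were called with HOMER in 1 library each (false discovery rate 0.001, at least 4-fold over 10000 bp around), per the file headers.

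Values were averaged per line as log2(RPKM + 1), filtered at a mean of 1 RPKM in either genotype and tested with limma 3.58.1 in R 4.3.3 with a variance trend, two-sided, Benjamini-Hochberg adjusted over all genes, threshold 0.05. Contrasts between lines used the 14 libraries. There p-values rest on samples of the same line and may hold technical spread only. limma recovered changed genes in simulated data, where the noise was equal for every gene and the changes were larger than the gamma ones. The share recovered is not given here. That setting cannot tell how readily changes as small, or reads as few, as those of the protocadherins would be called. Peak coordinates were made 1-based, and the list position stood in for the score. Peaks of equal strength may share a place by chromosome order.

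The members and gene lists were chosen with earlier results of these data known. The genes named are those called in any test, the 4 highest of each cluster, the C-type genes, the members with peaks, and up to 3 genes of each list. Other members were named after their values were seen, namely single A- and B-type gamma genes, low beta genes and partners with an unadjusted p under 0.05. The subtraction of the shared reads was added after seeing the data.

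A further deposited table of the authors gives log2 fold changes and p-values, of which only the gene names were used. Its 5 library columns match no sample by name and were not used. Not analysed here were 6 further ChIP-seq samples and 10 Med-Seq samples. Same-numbered d8 and GC samples did not deviate together, so the numbers were not taken as pairs.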

Additional observations from a re-analysis of the deposited data

Results flagged for a closer look

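A library stood far from the others of its genotype in 4 comparisons of gamma RPM, counted above the lowest row. For independent, normally spread values chance gives about 1 such case in 20 groups, and 57 groups were examined. Most of these groups are small read counts that are not independent, so that rate need not hold here. Pcdhgb6 had 1.57 in GC1B, against 0.381 in the next GC library. Pcdhgb8 had 0.829 in d8-2C, against 0.462 in the next d8 library. Pcdhgc4 had 0.438 in d8-3A, against 0.257 in the next. Pcdhga6 had 0.066 in GC2B, which is 1 read, and 0 in the other GC libraries, a pattern that is always flagged.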

How the results depend on the processing

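No member was called between d8 and GC under any alternative tried, including a replicate block by sample number, where 0 of 22 were called. The sample numbers are not pairs, as same-numbered d8 and GC libraries correlated at -0.19 to 0.08. The gamma median moved between -0.661 and -0.015 with 1 line left out. Gamma members called between d8 line 1 and d8 line 2, and between d8 line 1 and d8 line 3, ran from 0 to 22 with 1 library left out, 22 without d8-1C and 1, Pcdhgc3, without GC1C or GC2A (both contrasts) or GC1B (the second). The share of all genes called in those fits is not given here. With the shared reads taken off, an alternative chosen after seeing the data, 0 of the 1 member left to test (Pcdhgc3, log2 difference 0.65, adjusted p = 0.055) was called between the GC lines with the filter and 4 of 54 without it, against 22 of 22. In that fit without the filter Pcdhga1 (-0.25), Pcdhga2 (-0.20), Pcdhgb2 (-0.10), Pcdhga7 (-0.081), Pcdhga12 (-0.045), Pcdhga9 (-0.0086) and Pcdhga6 (-0.0069) turned negative for GC line 1 minus GC line 2. Pcdhgc5 turned to 0.0075 for d8 minus GC in that fit. These shifts follow from removing the shared reads. With 1 line left out Pcdhgc5 ran from -0.65 to 0.0043, 0.0043 without GC line 1, and the cause was not tested.

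Peak counts at starts depended on how much of each list was used. With the first 50% of the Del8 list and as many peaks from GC, they were 3 in Del8 and 1 in GC for alpha, 2 in Del8 and 0 in GC for beta, and 1 in Del8 and 11 in GC for gamma. With the GC list shortened to the Del8 length, chosen after seeing the data, there were 7 alpha starts with a Del8 peak and 5 with a GC peak, 9 beta starts with a Del8 peak and 8 with a GC peak, and 3 gamma starts with a Del8 peak and 15 with a GC peak. Windows of 500 and 2500 bp, other overlap rules and other margins kept each count within 1.5 times and each share within its interval. Depth limits the alpha and beta results, at 2 to 21 reads per library for the lowest alpha row and 0 to 33 for all beta genes together.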
